A study of Mus musculus with 12 samples.

Results

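The genes examined here were 36 mouse genes that make, move or burn acetyl-CoA: the pyruvate dehydrogenase complex with its kinases and phosphatases, the enzymes of the TCA cycle, the side reactions that feed it, the export of acetyl-CoA to the cytosol, and the first steps of fatty acid synthesis. Members were taken by gene symbol from 2 tables of raw counts, and 35 of the 36 had a row in each, out of 17544 genes listed for unstimulated cells and 17874 after LPS. Acss1, mitochondrial acetyl-CoA synthetase, had no row under that name and was not analysed here. All 35 passed the filter on low counts in every comparison.

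J774A.1 is a mouse macrophage line, and RNA-seq was performed on 4 groups of 3 libraries: WT unstimulated, ACAT1 KO unstimulated, WT LPS and ACAT1 KO LPS, where LPS was bacterial lipopolysaccharide, a ligand of TLR4, at 100 ng/ml for 2 hours. ACAT1 is the mitochondrial acetyl-CoA acetyltransferase, which releases acetyl-CoA in the last step of fatty acid oxidation and of ketone and isoleucine breakdown. Both genotypes had been transfected with a Cas9-GFP plasmid, with a guide to exon 4 of Acat1 in ACAT1 KO cells and no guide in WT cells. Clonal populations were then grown from a few sorted GFP+ cells, so differences between clones and differences due to the edit cannot be told apart. The study speaks of different lines per genotype in unstimulated cells, but the labels do not tie libraries to lines, and p-values measure the spread between these libraries.

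In a macrophage, pyruvate from glycolysis enters mitochondria and is turned to acetyl-CoA by the pyruvate dehydrogenase complex, in which the E1 enzyme (Pdha1, Pdhb) is switched off by phosphorylation and on again by removal of the phosphate. Acetyl-CoA joins oxaloacetate to form citrate, which is either oxidized in the TCA cycle or sent to the cytosol and cleaved to acetyl-CoA for lipid synthesis and protein acetylation. LPS-activated macrophages are known for rapid glycolysis and a rewired TCA cycle with accumulation of citrate, succinate and itaconate.

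Counts per library totalled 56948593 to 167280149. Levels are given as CPM, counts scaled by library size with TMM factors over the 12 libraries. A gene was called at a Benjamini-Hochberg adjusted p under 0.05 over all genes tested with edgeR's quasi-likelihood test. The edited gene, Acat1, stood at 108, 107 and 80.8 CPM in the unstimulated WT libraries and 28.9, 25.5 and 26.1 CPM in the unstimulated ACAT1 KO libraries. After LPS it stood at 85.4, 95.4 and 65.0 CPM in WT and 19.9, 18.5 and 18.9 CPM in ACAT1 KO libraries, so the ACAT1 KO libraries were the lower in each state. Its log2 fold change was -1.87 (edgeR, adjusted p = 0.00876) without and -2.08 (edgeR, adjusted p = 0.000787) with LPS. All 10 macrophage markers checked (among them Adgre1, Csf1r and Cd68) had rows. By contrast, only 2 of 12 markers of T cells, B cells, neutrophils, epithelium, fibroblasts and endothelium had a CPM over the 12 libraries. These were Pecam1 and Cdh5, which summed to at most 2.65 CPM in any library. The other 10 were absent from 1 or both tables or fell below the filter on low counts. Among them, Mpo and Col1a1 had a row in at least 1 table, and their levels are not reported here. The macrophage markers summed to 9593 to 10612 CPM in WT and 10702 to 12220 CPM in ACAT1 KO cells without stimulation, and to 10147 to 10551 CPM and 10389 to 11998 CPM after LPS, and their part in the differences between genotypes was not tested. Of the 10, 0 were called higher and 2 lower in ACAT1 KO cells without stimulation (Adgre1 at -0.78 (edgeR, adjusted p = 0.0368) and Fcgr1 at -0.69 (edgeR, adjusted p = 0.0124)), and after LPS 3 were called higher (Itgam, Cd14, Spi1) and 1 lower (Fcgr1, at -1.07 (edgeR, adjusted p = 0.00312)). Of all genes, 0.742% were called higher and 1.17% lower without stimulation, and 5.93% and 9.12% after LPS. Tnf, Il1b, Nfkbia and Il6 rose after LPS in both genotypes. Together with Cxcl2 they were the 5 LPS response genes checked, of which 4 were called higher in WT and 5 in ACAT1 KO cells. The genotypes differed after LPS: 4 of the 5 were called higher in ACAT1 KO than in WT cells and 0 lower. Their median log2 fold change was 0.90, and 5.93% of all genes were called higher. Without stimulation, 3 libraries (replicates 1 and 2 of WT, replicate 2 of ACAT1 KO) put 0.0679% to 0.0722% of their counts on noncoding genes located within exons of opposite orientation, against 0.0480% to 0.0528% in the remaining 3. The calls of Pdhx and Cs between unstimulated genotypes are given below within each of these sets. The difference in mean log2 CPM, ACAT1 KO less WT, was -2.06 and -1.54 for Acat1 in the first and the second set. LPS calls, which share these libraries, were refitted with a term for the first set (the antisense term) and, separately, with the replicate number as a block (the replicate block). The LPS libraries put 0.05938% to 0.06585% of their counts on such genes, between the 2 sets, and the term codes them like the second set. It thus takes up a difference among unstimulated libraries and does not adjust LPS libraries for their own share.

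The 5 promoters printed here are those of Pdhx and Cs, the members called between genotypes in both states, and of Pdk1, Pdk2 and Pdp2, regulators of pyruvate dehydrogenase that moved in opposite directions after LPS. Each window runs from 250 bases before to 50 bases after a RefSeq start (GRCm38.p6), 5′ to 3′. Capitals mark 3 motifs, searched on both strands. The first is CCAAT, which on the other strand reads as ATTGG. The GC box is GGGCGG, which on the other strand reads as CCGCCC. The last is the E-box CACGTG, which reads alike on either strand. The window of Pdhx is at chr2:103073464-103073763 on the minus strand, Cs at chr10:128337477-128337776 on the plus strand, Pdk1 at chr2:71872974-71873273 on the plus strand, Pdk2 at chr11:95041322-95041621 on the minus strand and Pdp2 at chr8:104591222-104591521 on the plus strand.
Pdhx: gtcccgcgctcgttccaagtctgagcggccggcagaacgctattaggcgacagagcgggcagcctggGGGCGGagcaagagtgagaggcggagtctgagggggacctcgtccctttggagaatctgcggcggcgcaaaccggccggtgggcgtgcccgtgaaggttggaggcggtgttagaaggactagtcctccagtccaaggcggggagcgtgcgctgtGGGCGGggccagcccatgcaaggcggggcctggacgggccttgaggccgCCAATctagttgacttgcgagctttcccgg
Cs: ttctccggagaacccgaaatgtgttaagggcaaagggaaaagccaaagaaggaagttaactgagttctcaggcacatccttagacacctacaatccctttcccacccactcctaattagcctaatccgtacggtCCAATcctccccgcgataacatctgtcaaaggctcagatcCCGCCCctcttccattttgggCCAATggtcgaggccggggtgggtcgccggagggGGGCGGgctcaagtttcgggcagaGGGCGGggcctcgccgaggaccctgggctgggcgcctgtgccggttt
Pdk1: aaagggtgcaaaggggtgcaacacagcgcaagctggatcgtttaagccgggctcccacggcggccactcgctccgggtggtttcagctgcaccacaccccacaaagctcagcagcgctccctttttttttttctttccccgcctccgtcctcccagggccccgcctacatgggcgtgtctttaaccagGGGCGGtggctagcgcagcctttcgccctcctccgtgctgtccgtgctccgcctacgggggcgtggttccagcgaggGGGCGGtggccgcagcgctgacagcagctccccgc
Pdk2: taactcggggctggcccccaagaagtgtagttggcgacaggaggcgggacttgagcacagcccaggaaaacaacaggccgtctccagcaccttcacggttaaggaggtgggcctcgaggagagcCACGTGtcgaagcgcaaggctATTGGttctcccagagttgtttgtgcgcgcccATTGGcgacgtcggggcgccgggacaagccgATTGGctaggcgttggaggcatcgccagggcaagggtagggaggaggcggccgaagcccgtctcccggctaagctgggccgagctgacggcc
Pdp2: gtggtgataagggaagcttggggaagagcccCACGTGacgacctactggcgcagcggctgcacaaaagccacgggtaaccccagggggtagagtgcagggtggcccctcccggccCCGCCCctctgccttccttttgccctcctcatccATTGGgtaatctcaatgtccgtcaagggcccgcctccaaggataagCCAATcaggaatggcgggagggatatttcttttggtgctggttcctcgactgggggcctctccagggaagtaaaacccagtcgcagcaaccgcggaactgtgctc

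Of the 35 members, 31 had a promoter entry, and where a gene had several the window nearest to the start of the GENCODE gene was read. For Sucla2 and Acaca that window lies 27467 and 65766 bases from the annotated start. A CCAAT match stood in 20 of the 31 windows (64.5%, against 37.4% of all 32851 windows of the same length), a GC box in 22 (71.0%, against 35.7%) and an E-box in 4 (12.9%, against 7.15%). Among the 5 printed, Pdhx held 1 CCAAT and 2 GC boxes, Cs 2 and 3, Pdk1 none and 2, Pdk2 3 and none, and Pdp2 2 and 1, while the E-box stood only in Pdk2 and Pdp2 (1 each). The background took all windows, whereas 1 was read per member, and it was not matched for GC content or expression. It therefore cannot show that the motifs are particular to these genes. These matches describe the letters and not occupied sites.

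To compare genes with each other, levels were divided by the length of all annotated exons (CPM per kb). In unstimulated WT cells the most abundant member was Mdh1, cytosolic malate dehydrogenase, at 80.2 ± 10.3 CPM per kb (SD, n = 3). It was followed by Mdh2, the mitochondrial malate dehydrogenase, at 55.9 ± 0.245, Fh1, fumarase, at 54.2 ± 1.96, Dld, the E3 subunit shared by the pyruvate and 2-oxoglutarate dehydrogenase complexes, at 53.2 ± 1.59, and Acly at 49.3 ± 2.45 CPM per kb. Libraries of Fh1 overlapped with those of Mdh2 and of Dld, and those of Dld with those of Acly, whereas Mdh1 lay above all others. The lowest were Acss2, cytosolic acetyl-CoA synthetase, at 1.04 ± 0.158 CPM per kb and Pdk2 at 1.44 ± 0.274 CPM per kb, and these were the lowest of the 35 in all 4 groups. Among the routes that yield cytosolic acetyl-CoA, the level of Acly per kb was 47.8 ± 6.34 times that of Acss2 and 16.3 ± 0.935 times that of Crat in unstimulated WT cells (ratio, SD over 3 libraries). These ranks and ratios depend on the annotated exonic length, which is 10163 bases over 10 transcripts for Acss2, 5279 bases for Acly and 5388 for Crat. How far these lengths match the transcripts expressed was not tested.

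**Figure D1:**
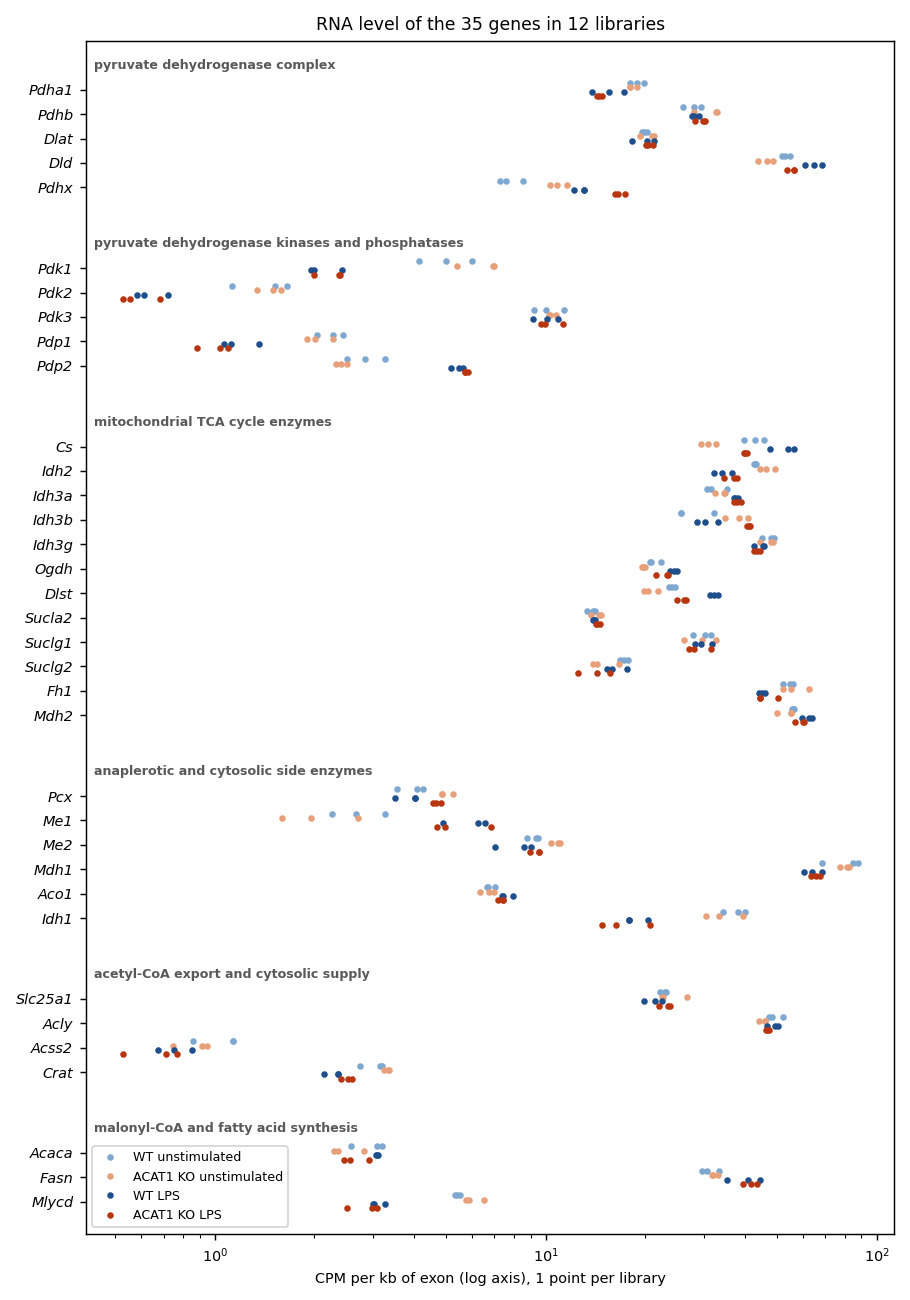
Level of each of the 35 members in CPM per kb of exon (log axis), with 1 point per library and the 4 groups in separate colours, ordered by role. Pdk1, Pdk2, Pdp1, Idh1 and Mlycd sit to the left after LPS and Pdp2, Pdhx and Me1 to the right in both genotypes, while Acss2 and Pdk2 are the lowest genes throughout.

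LPS changed most of these genes within 2 hours. The largest changes were in the pyruvate dehydrogenase kinases Pdk1 and Pdk2, the phosphatases Pdp1 and Pdp2, the NADPH-producing enzymes Me1 and Idh1, and Mlycd, while called enzymes of the mitochondrial TCA cycle moved less. In WT cells 11 members rose and 11 fell (of all genes tested, 29.3% were higher and 28.0% lower), and in ACAT1 KO cells 10 rose and 11 fell (29.5% and 31.2% of all genes). The share of members called was thus 22 of 35 and 21 of 35 where most of all genes were called too. The median log2 fold change of the members was -0.013 in WT and -0.029 in ACAT1 KO cells, beside -0.018 and -0.026 over all genes. Directions of small changes depended on scaling. Upper-quartile factors moved the median of all genes to -0.23 in WT and -0.17 in ACAT1 KO cells and gave 4 members higher and 21 lower in WT, and 6 and 19 in ACAT1 KO cells. An offset for gene length and GC content gave 8 and 12 in WT, and 7 and 14 in ACAT1 KO cells.

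Of the 5 kinases and phosphatases, 3 fell and 1 rose in each genotype, with a median log2 fold change of -0.93 in WT and -1.04 in ACAT1 KO cells. Over all genes, 28.0% fell and 29.3% rose in WT, and 31.2% fell and 29.5% rose in ACAT1 KO cells. Pdk1, a kinase that inactivates pyruvate dehydrogenase, was at 46.5, 38.8 and 32.1 CPM in unstimulated WT and 18.8, 15.5 and 15.2 CPM in WT LPS libraries. In ACAT1 KO cells it was at 53.8, 54.2 and 41.9 CPM before and 18.6, 18.4 and 15.5 CPM after LPS. The states did not overlap in either genotype, with log2 fold changes of -1.24 (edgeR, adjusted p = 1.68e-05) in WT and -1.51 (edgeR, adjusted p = 2.87e-06) in ACAT1 KO cells. Pdk2, a second kinase of the same family, was at 5.24, 3.57 and 4.82 CPM in unstimulated WT and 1.84, 1.94 and 2.29 CPM in WT LPS libraries, and at 5.01, 4.74 and 4.25 CPM and 1.76, 2.16 and 1.67 CPM in ACAT1 KO cells. It also fell without overlap, with log2 values of -1.17 (edgeR, adjusted p = 8.19e-05) and -1.33 (edgeR, adjusted p = 2.68e-05). Pdk3, the third kinase with a row, gave log2 values of -0.024 (edgeR, adjusted p = 0.843) and -0.013 (edgeR, adjusted p = 0.909), with 95% intervals of -0.22 to 0.17 and -0.21 to 0.18. With upper-quartile factors Pdk3 passed as lower in WT, at -0.23 (edgeR, adjusted p = 0.0391). Pdk4 had no row under that name.

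The pair of phosphatases that reactivate the complex moved apart. Pdp1 was at 9.17, 10.3 and 11 CPM in unstimulated WT and 4.82, 6.12 and 5.04 CPM in WT LPS libraries, and at 8.59, 10.3 and 9.04 CPM and 3.98, 4.96 and 4.67 CPM in ACAT1 KO cells, with log2 fold changes of -0.93 (edgeR, adjusted p = 5.00e-05) and -1.04 (edgeR, adjusted p = 1.94e-05). Pdp2 was at 14.3, 16.2 and 18.6 CPM in unstimulated WT and 31.1, 29.4 and 32.1 CPM in WT LPS libraries. In ACAT1 KO cells Pdp2 was at 14.3, 13.7 and 13.2 CPM before and 32.4, 32.6 and 33.2 CPM after LPS, so each LPS library lay above each unstimulated library of its genotype. Its log2 fold change was 0.91 (edgeR, adjusted p = 2.03e-06) in WT and 1.25 (edgeR, adjusted p = 1.32e-07) in ACAT1 KO cells, a 1.88-fold and 2.38-fold rise.

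Summed per kb, the 3 kinases went from 16.7 ± 0.474 to 12.8 ± 0.715 CPM per kb in WT (SD, n = 3) and from 18.3 ± 1.22 to 13.2 ± 1.09 in ACAT1 KO cells. The summed phosphatases went from 5.13 ± 0.583 to 6.603 ± 0.133 and from 4.48 ± 0.194 to 6.76 ± 0.153 CPM per kb. The ratio of kinase to phosphatase RNA was 3.28 ± 0.385 in unstimulated WT and 4.09 ± 0.170 in unstimulated ACAT1 KO cells, and 1.94 ± 0.0740 and 1.949 ± 0.163 after LPS. Unstimulated ACAT1 KO libraries, from 3.92 to 4.26, lay above WT libraries, from 2.98 to 3.71, while after LPS the genotypes overlapped. These ratios combine genes whose values were already known and are given without a test. Of the kinase RNA summed per kb, Pdk3 made up 61.2 ± 6.04% in unstimulated WT cells and 78.3 ± 2.65% in WT LPS cells. Pdp2 made up 56.0 ± 1.05% and 82.1 ± 2.53% of the phosphatase RNA on the same scale. Such shares depend on the annotated exonic length, 7779 bases for Pdk1 and 2561 for Pdk3.

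**Figure D2:**
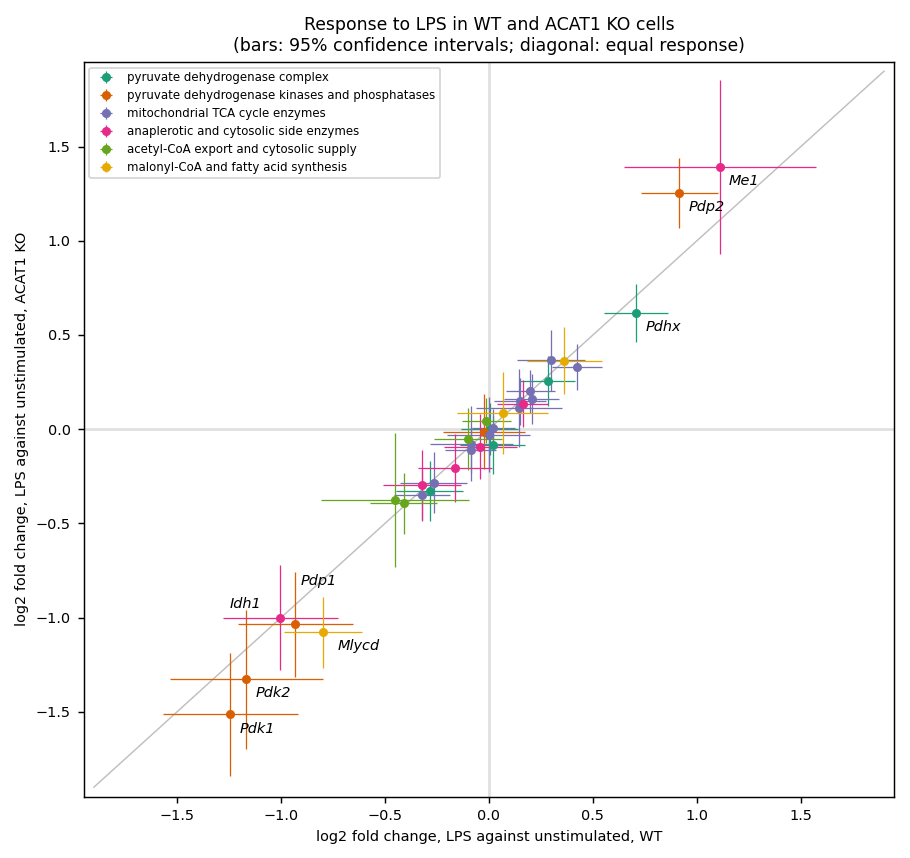
Log2 fold change of each member after LPS in WT (x axis) and in ACAT1 KO cells (y axis), with 95% confidence intervals and colours by role; the diagonal marks an equal response. All 8 named genes lie near the diagonal, with Pdk1 and Pdk2 lowest and Me1 and Pdp2 highest, and the remaining genes lie within 0.5 of 0 on both axes.

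Within the pyruvate dehydrogenase complex, LPS raised 2 of 5 subunits and lowered 1 in each genotype. The shares of all genes were 29.3% higher and 28.0% lower in WT and 29.5% and 31.2% in ACAT1 KO cells. Pdhx, the subunit that tethers the E3 enzyme to the core, rose most, with a log2 fold change of 0.71 (edgeR, adjusted p = 3.69e-06) in WT and 0.62 (edgeR, adjusted p = 1.03e-05) in ACAT1 KO cells. Dld rose by 0.28 (edgeR, adjusted p = 0.00172) and 0.26 (edgeR, adjusted p = 0.00317) on the log2 scale, a call that was lost under upper-quartile factors in both genotypes and, in ACAT1 KO cells, with the offset without and with the replicate block, at 0.11 (edgeR, adjusted p = 0.164) and 0.11 (edgeR, adjusted p = 0.127). Pdha1, the catalytic E1 subunit that the kinases phosphorylate, had log2 fold changes of -0.28 (edgeR, adjusted p = 0.00564) and -0.33 (edgeR, adjusted p = 0.00205). Exons of the other strand cover 16.15% of the exonic length of Pdha1. Pdhb and Dlat, the other E1 subunit and the E2 core enzyme, did not pass, with 95% intervals of -0.14 to 0.17 and -0.13 to 0.14 in WT cells. With upper-quartile factors both passed as lower in each genotype. In ACAT1 KO cells Pdhb was also lower with the antisense term, at -0.14 (edgeR, adjusted p = 0.0404). The offset with the replicate block gave -0.17 (edgeR, adjusted p = 0.0473) for Pdhb there. The level of Pdhx per kb relative to Dlat was 0.394 ± 0.0395 in unstimulated WT and 0.646 ± 0.0699 in WT LPS cells.

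Of the 12 mitochondrial TCA cycle enzymes, 5 rose and 2 fell in each genotype, with changes of at most 0.42 on the log2 scale. Of all genes, 29.3% rose and 28.0% fell in WT and 29.5% and 31.2% in ACAT1 KO cells. Dlst, the E2 enzyme of the 2-oxoglutarate dehydrogenase complex, rose most, from 231, 234 and 226 CPM in unstimulated WT to 308, 318 and 300.2 CPM in WT LPS libraries and from 208, 195 and 189 CPM to 251, 255 and 239 CPM in ACAT1 KO libraries. These values gave a log2 fold change of 0.42 ± 0.0548 (SE, edgeR, adjusted p = 3.48e-05) in WT and of 0.33 (edgeR, adjusted p = 0.000235) in ACAT1 KO cells. Cs, citrate synthase, which joins acetyl-CoA to oxaloacetate, rose by 0.30 (edgeR, adjusted p = 0.00437) and 0.37 (edgeR, adjusted p = 0.00109). Ogdh, the E1 enzyme of the same complex as Dlst, rose by 0.20 (edgeR, adjusted p = 0.00658) and 0.20 (edgeR, adjusted p = 0.00607), Idh3a, a subunit of NAD-linked isocitrate dehydrogenase, by 0.20 (edgeR, adjusted p = 0.0122) and 0.16 (edgeR, adjusted p = 0.0378), and Mdh2 by 0.15 (edgeR, adjusted p = 0.0393) and 0.15 (edgeR, adjusted p = 0.0401). Ogdh and Cs passed in each fit that left out a library, whereas Idh3a passed in 5 of 6 such fits in WT and 1 of 6 in ACAT1 KO cells and Mdh2 in 1 and 3 of 6. With upper-quartile factors none of these 4 passed except Cs in ACAT1 KO cells, and the value turned negative for Ogdh, at -0.0099, and Idh3a, at -0.0042, in WT and for Mdh2 in both genotypes, at -0.059 and -0.00056. The calls of Idh3a and Mdh2 were also lost in both genotypes with the offset, at 0.10 and 0.058 for Idh3a and 0.16 and 0.15 for Mdh2. With the antisense term they were lost as well, at 0.11 and 0.11 for Idh3a and 0.10 and 0.13 for Mdh2. Idh2, the mitochondrial NADP-linked isocitrate dehydrogenase, fell, with log2 values of -0.32 (edgeR, adjusted p = 0.000740) and -0.35 (edgeR, adjusted p = 0.000366), and Fh1 had log2 fold changes of -0.27 (edgeR, adjusted p = 0.00865) and -0.28 (edgeR, adjusted p = 0.00565). Idh3b, Idh3g, Sucla2, Suclg1 and Suclg2 did not pass in either genotype, although Idh3g, Sucla2 and Suclg2 passed as lower in both with upper-quartile factors and Idh3g also with the antisense term, at -0.15 (edgeR, adjusted p = 0.0486) and -0.14 (edgeR, adjusted p = 0.0305).

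Among the side enzymes Me1 and Idh1 moved most. Me1, cytosolic malic enzyme, a source of NADPH, was at 10.3, 12.5 and 8.72 CPM in unstimulated WT and 24.0, 25.2 and 18.8 CPM in WT LPS libraries, and at 10.4, 6.14 and 7.51 CPM and 26.2, 19.0 and 18.1 CPM in ACAT1 KO libraries. The rise of 1.11 (edgeR, adjusted p = 0.000712) in WT and 1.39 (edgeR, adjusted p = 0.000120) in ACAT1 KO cells on the log2 scale was the largest among the members, with wide 95% intervals of 0.65 to 1.57 and 0.93 to 1.86. Idh1, cytosolic NADP-linked isocitrate dehydrogenase, was at 111, 106 and 95 CPM in unstimulated WT and 49.4, 56.4 and 49.6 CPM in WT LPS libraries, and at 92.3, 84.3 and 109.7 CPM and 45.1, 41.0 and 57.1 CPM in ACAT1 KO libraries. It fell, with log2 values of -1.0 (edgeR, adjusted p = 2.91e-05) and -1.0 (edgeR, adjusted p = 2.73e-05), without overlap of the states. Mdh1 fell, with log2 values of -0.32 (edgeR, adjusted p = 0.00640) and -0.30 (edgeR, adjusted p = 0.01001). Aco1, the cytosolic aconitase that is also an iron-regulatory protein, passed in WT cells at 0.16 (edgeR, adjusted p = 0.0277) and not in ACAT1 KO cells at 0.14 (edgeR, adjusted p = 0.0551), while Me2, mitochondrial malic enzyme, passed in ACAT1 KO cells at -0.21 (edgeR, adjusted p = 0.0463) and not in WT cells at -0.16 (edgeR, adjusted p = 0.110). The call of Aco1 was lost in 3 of 6 fits that left out a library, that of Me2 in all 6, and Aco1 in WT was at -0.047 with upper-quartile factors. With the antisense term neither passed, at 0.14 (edgeR, adjusted p = 0.116) for Aco1 in WT and -0.21 (edgeR, adjusted p = 0.0575) for Me2 in ACAT1 KO cells. With the replicate block Me2 also fell in WT, at -0.17 (edgeR, adjusted p = 0.0259). For LPS and the interaction, the block treats same-numbered libraries of each genotype as pairs across states. That pairing was inferred from the data for WT, is not given by the labels and is not part of the main fit. Between genotypes the block instead groups same-numbered WT and ACAT1 KO libraries of a state, which the labels do not give either. Pcx, pyruvate carboxylase, which makes oxaloacetate, gave -0.043 (edgeR, adjusted p = 0.679) and -0.093 (edgeR, adjusted p = 0.333). With upper-quartile factors Pcx passed as lower in WT, at -0.25 (edgeR, adjusted p = 0.0150), and in ACAT1 KO cells, at -0.24 (edgeR, adjusted p = 0.0175).

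The route that carries acetyl-CoA out of mitochondria as citrate was not called after LPS: Slc25a1, the citrate carrier, gave log2 values of -0.10 (edgeR, adjusted p = 0.282) and -0.053 (edgeR, adjusted p = 0.556), and Acly, ATP citrate lyase, gave -0.013 (edgeR, adjusted p = 0.858) and 0.046 (edgeR, adjusted p = 0.488), with 95% intervals of -0.13 to 0.11 and -0.073 to 0.16. Acly was at 275, 256 and 249.8 CPM in unstimulated WT and 259.7, 247 and 266 CPM in WT LPS libraries, which overlapped. With upper-quartile factors Slc25a1 passed as lower in both genotypes and Acly in WT, while with the offset and the replicate block Slc25a1 passed as higher in ACAT1 KO cells, at 0.18 (edgeR, adjusted p = 0.0357). Crat, carnitine acetyltransferase, which exchanges acetyl groups between CoA and carnitine, was at 17.2, 17 and 14.8 CPM in unstimulated WT and 12.7, 12.7 and 11.5 CPM in WT LPS libraries. In ACAT1 KO cells Crat was at 17.5, 18.1 and 17.9 CPM before and 13, 13.7 and 14.0 CPM after LPS. It fell, with log2 values of -0.41 (edgeR, adjusted p = 0.000477) and -0.39 (edgeR, adjusted p = 0.000563), without overlap of the states, and 8.7% of its exonic length is covered by exons of the other strand. Acss2 fell in WT, with a log2 value of -0.45 (edgeR, adjusted p = 0.0313), a call lost without either of 2 WT unstimulated or 2 WT LPS libraries and with the antisense term, at -0.27 (edgeR, adjusted p = 0.222). In ACAT1 KO cells it gave -0.38 (edgeR, adjusted p = 0.0622) and passed as lower with upper-quartile factors (edgeR, adjusted p = 0.0136), the offset (edgeR, adjusted p = 0.0125) and DESeq2 (adjusted p = 0.0384). For Acss2, 9.12% of the exonic length is covered by exons of the other strand.

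Around malonyl-CoA, the decarboxylase and the synthase moved in opposite directions. Mlycd, malonyl-CoA decarboxylase, which returns malonyl-CoA to acetyl-CoA, was at 15.8, 16.0 and 16.3 CPM in unstimulated WT and 8.97, 8.95 and 9.73 CPM in WT LPS libraries, and at 17.1, 19.3 and 17.4 CPM and 7.45, 9.15 and 8.87 CPM in ACAT1 KO libraries. Its log2 fold change was -0.80 (edgeR, adjusted p = 7.59e-06) in WT and -1.08 (edgeR, adjusted p = 5.14e-07) in ACAT1 KO cells. Fasn, fatty acid synthase, rose by 0.36 (edgeR, adjusted p = 0.00235) and 0.36 (edgeR, adjusted p = 0.00214), a call lost in WT with upper-quartile factors, whereas Acaca, acetyl-CoA carboxylase, gave 0.065 (edgeR, adjusted p = 0.607) and 0.087 (edgeR, adjusted p = 0.469). Acaca passed as higher with the antisense term, at 0.26 (edgeR, adjusted p = 0.0135) and 0.19 (edgeR, adjusted p = 0.0281), and as lower in WT with the offset and the replicate block, at -0.17 (edgeR, adjusted p = 0.0167), so its direction depended on the setting. Of the 7 members that are known targets of the lipogenic factor SREBP (Acly, Acss2, Acaca, Fasn, Me1, Slc25a1, Idh1), 2 rose and 2 fell in WT and 2 rose and 1 fell in ACAT1 KO cells. The shares over all genes were 29.3% and 28.0% in WT and 29.5% and 31.2% in ACAT1 KO cells.

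**Figure D3:**
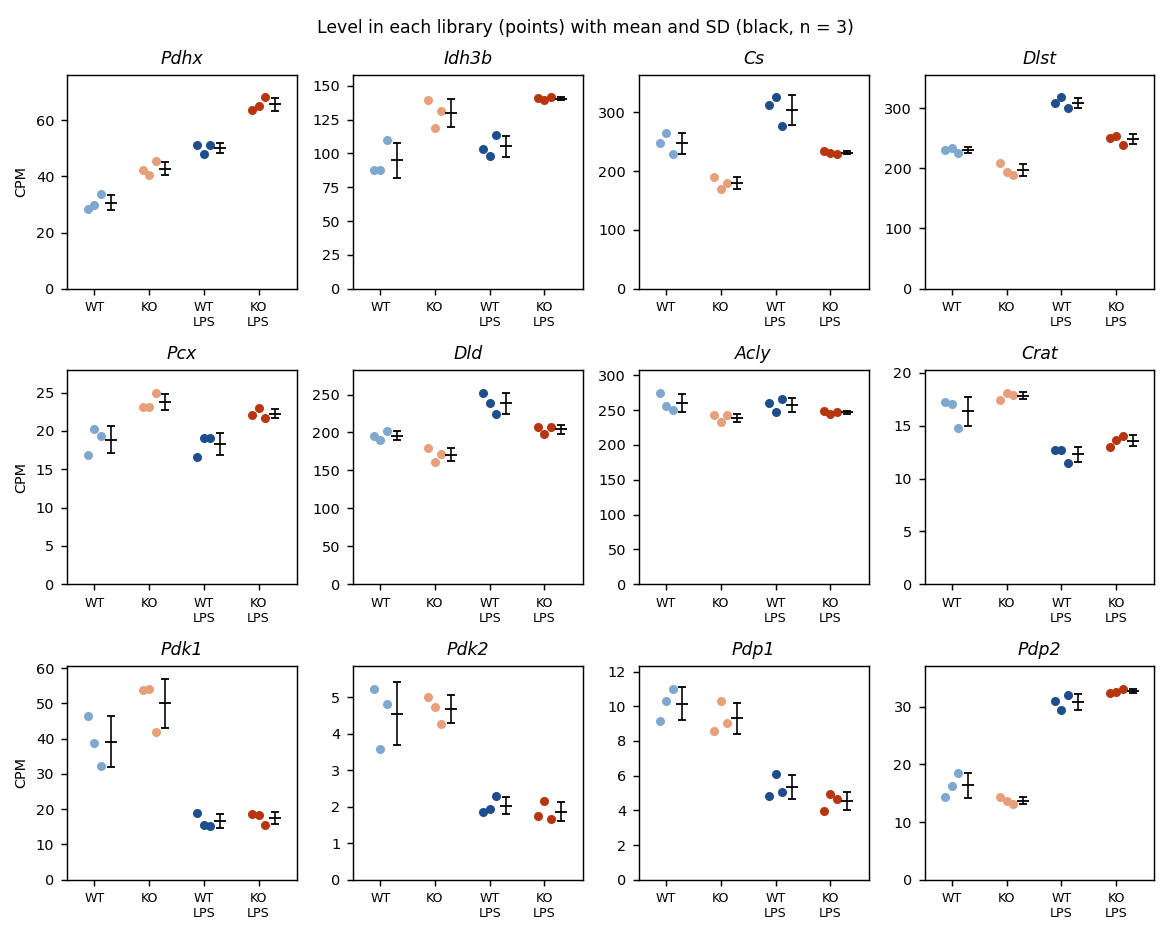
CPM of 12 members in each library (points, axis from 0) with the mean and SD of each group (black, n = 3). Pdhx and Idh3b are higher and Cs and Dlst lower in ACAT1 KO cells in both states, and Pdk1, Pdk2 and Pdp1 fall and Pdp2 rises with LPS in both genotypes.

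The comparison of genotypes asked whether loss of ACAT1 was accompanied by other expression of the enzymes that supply or use acetyl-CoA. Only 5 members were called in either state, and each had the same sign in both. Without stimulation 1 member, Pdhx, was higher and 1, Cs, was lower in ACAT1 KO cells at the adjusted threshold, where 0.742% of all genes were higher and 1.17% lower. DESeq2 called 6 members and edgeR with all 12 libraries in a single fit 5, adding Idh3b, Dlst and Pcx in both cases and Me2 with DESeq2. With p under 0.05 and no adjustment, 4 members were higher and 4 lower, beside 9.73% and 9.93% of all genes. After LPS 3 members (Pdhx, Idh3b, Pcx) were higher and 2 (Cs, Dlst) lower, against 5.93% and 9.12% of all genes, a share of calls near the background. The median log2 fold change of the members was 0.015 without and -0.014 with LPS, beside 0.0035 and -0.0041 for all genes. In bulk RNA, fewer cells with a transcript and less RNA per cell cannot be told apart.

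Pdhx was at 28.6, 29.7 and 33.7 CPM in WT and 42.4, 40.6 and 45.4 CPM in ACAT1 KO cells without stimulation. After LPS it was at 51.3, 48.0 and 51.2 CPM in WT and 63.7, 65.1 and 68.2 CPM in ACAT1 KO cells. Every ACAT1 KO library lay above every WT library of its state, with a log2 fold change of 0.49 ± 0.0820 (SE, edgeR, adjusted p = 0.0442) without and 0.41 (edgeR, adjusted p = 0.00597) with LPS, that is 40.5% and 32.9% more RNA. The level per kb relative to Dlat was 0.532 ± 0.0143 in unstimulated ACAT1 KO and 0.815 ± 0.00785 in ACAT1 KO LPS cells, above the WT values of the same state. The other subunits, Pdha1, Pdhb and Dlat, did not pass in either state.

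Cs was at 247, 265 and 229.6 CPM in WT and 189, 170.2 and 179 CPM in ACAT1 KO cells without stimulation. After LPS it was at 312, 325 and 276 CPM in WT and 234, 231 and 229 CPM in ACAT1 KO cells. The genotypes did not overlap in either state, and Cs had a log2 fold change of -0.45 ± 0.0743 (SE, edgeR, adjusted p = 0.0427) without and -0.37 (edgeR, adjusted p = 0.0118) with LPS, 26.9% and 22.8% less RNA. Relative to Acly, the level of Cs per kb was 0.869 ± 0.0669 in WT and 0.686 ± 0.0242 in ACAT1 KO cells without stimulation, and 1.08 ± 0.129 and 0.856 ± 0.00792 after LPS.

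The 2 calls in unstimulated cells rested on few libraries. When libraries were left out in turn, Pdhx and Cs passed only without WT replicate 3. In the other 5 fits the adjusted p ran from 0.108 to 0.168 for Pdhx and from 0.105 to 0.169 for Cs (edgeR). Over all 6, the log2 values ran from 0.43 to 0.57 for Pdhx and from -0.51 to -0.40 for Cs. Within the set of 3 unstimulated libraries rich in such noncoding counts (2 WT, 1 ACAT1 KO) the difference in mean log2 CPM, ACAT1 KO less WT, was 0.47 for Pdhx and -0.59 for Cs, and within the remaining 3 (1 WT, 2 ACAT1 KO) it was 0.38 and -0.32. After LPS, Pdhx passed in all 6 fits that left out a library, and Cs in all but the fit without ACAT1 KO replicate 2 (edgeR, adjusted p = 0.0523).

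Idh3b, a regulatory subunit of NAD-linked isocitrate dehydrogenase, was at 87.7, 87.4 and 110.0 CPM in WT and 139.6, 119 and 131 CPM in ACAT1 KO cells without stimulation and at 103, 98.3 and 114 CPM and 141, 139 and 141 CPM after LPS. The ACAT1 KO libraries were the higher in each state, with a log2 fold change of 0.44 ± 0.0649 (SE, edgeR, adjusted p = 0.00655) after LPS, which passed in all 6 fits that left out a library, and 0.46 (edgeR, adjusted p = 0.0911) without stimulation, which did not pass. Idh3b made up 27.2 ± 2.01% of the summed RNA per kb of the 3 Idh3 subunits in WT LPS and 33.5 ± 0.355% in ACAT1 KO LPS cells. Idh3a and Idh3g, the other subunits, gave 0.037 (edgeR, adjusted p = 0.653) and -0.014 (edgeR, adjusted p = 0.882) after LPS.

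Dlst lay at the values given above, lower in each ACAT1 KO library than in any WT library of the same state, with a log2 fold change of -0.29 ± 0.0515 (SE, edgeR, adjusted p = 0.0108) after LPS and -0.21 (edgeR, adjusted p = 0.123) without stimulation. The LPS call was lost without ACAT1 KO replicate 3 (edgeR, adjusted p = 0.0521) and with an offset for gene length and GC content, where the log2 value was -0.17. Dld, whose protein joins Dlst in the same complex, was at 252, 239 and 224 CPM in WT LPS and 208, 197 and 207 CPM in ACAT1 KO LPS libraries, without overlap, at -0.20 (edgeR, adjusted p = 0.0558) on the log2 scale, and at -0.19 (edgeR, adjusted p = 0.170) without stimulation. Dld after LPS passed as lower with DESeq2 (adjusted p = 0.0450), with all 12 libraries in a single fit (edgeR, adjusted p = 0.0327) and without WT LPS replicate 3 (edgeR, adjusted p = 0.0484). Pcx was at 16.9, 20.3 and 19.4 CPM in WT and 23.1, 23.1 and 24.9 CPM in ACAT1 KO cells without stimulation and at 16.6, 19.1 and 19.1 CPM and 22.1, 22.9 and 21.7 CPM after LPS, again without overlap, with a log2 fold change of 0.30 ± 0.0736 (SE, edgeR, adjusted p = 0.0307) after LPS and 0.34 (edgeR, adjusted p = 0.0972) without stimulation. The LPS call of Pcx was lost without WT replicate 2 or without any of the 3 ACAT1 KO libraries. Me2 was at 63.7, 68.9 and 67.7 CPM in WT and 75.2, 78.9 and 80.4 CPM in ACAT1 KO cells without stimulation, at 0.24 (edgeR, adjusted p = 0.0972) on the log2 scale, and gave 0.21 (edgeR, adjusted p = 0.176) after LPS.

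Acly and Crat, which supply acetyl-CoA to the cytosol and nucleus, did not pass between genotypes. Acly was at 242, 232 and 243 CPM in ACAT1 KO cells without stimulation, below the WT values above, and at 249, 244 and 247 CPM after LPS, where the genotypes overlapped. Crat lay above WT in every ACAT1 KO library of both states, at the values given above. The log2 fold change of Acly was -0.11 (edgeR, adjusted p = 0.377) without and -0.042 (edgeR, adjusted p = 0.634) with LPS, with 95% intervals of -0.26 to 0.035 and -0.16 to 0.079. For Crat it was 0.13 (edgeR, adjusted p = 0.417) and 0.16 (edgeR, adjusted p = 0.183), with intervals of -0.057 to 0.33 and -0.010 to 0.33. For Acss2, at -0.25 (edgeR, adjusted p = 0.417) and -0.16 (edgeR, adjusted p = 0.493), and Me1, at -0.38 (edgeR, adjusted p = 0.401) and -0.081 (edgeR, adjusted p = 0.765), the libraries varied more and the intervals reached -0.61 and -0.90 without stimulation. Acaca gave -0.20 (edgeR, adjusted p = 0.0881) after LPS. None of the 5 kinases and phosphatases and none of the 3 malonyl-CoA genes passed in either state, and Pdk1 without stimulation was at 0.36 (edgeR, adjusted p = 0.264), with a 95% interval of -0.0091 to 0.73.

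**Figure D4:**
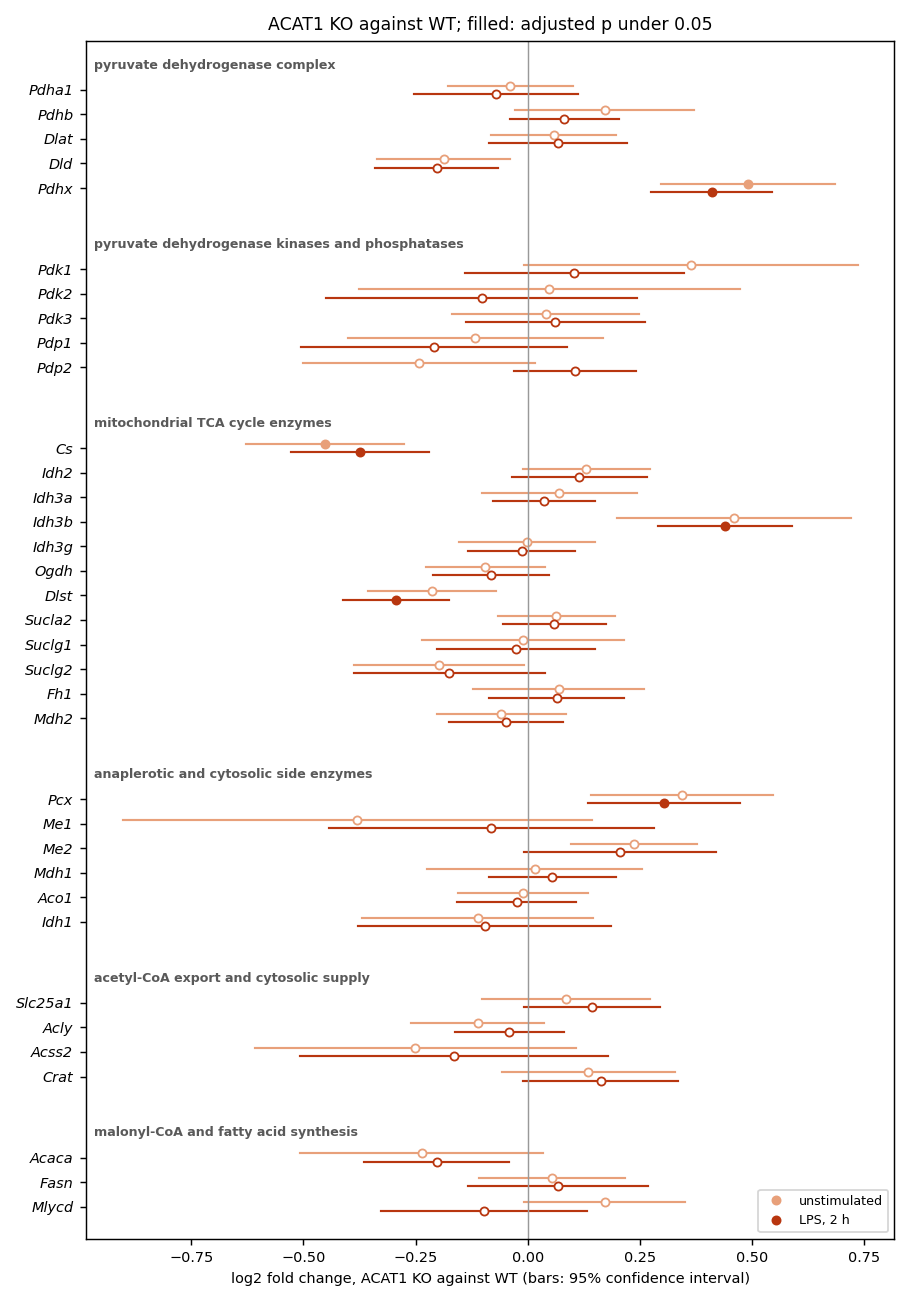
Log2 fold change of each member in ACAT1 KO against WT cells (x axis) with its 95% confidence interval, unstimulated and after LPS, ordered by role; filled points have an adjusted p under 0.05. Pdhx and Cs are filled in both states, Idh3b, Dlst and Pcx after LPS only, and most other intervals include 0.

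Pdhx, Idh3b, Cs and Dlst lie in stretches of the genome where most genes differed in the same direction. Pdhx lies at chr2:103021075-103073513 (minus strand) and Idh3b at chr2:130279309-130284547 (minus strand) of GRCm38, Cs at chr10:128337734-128362479 (plus strand), Dlst at chr12:85110833-85134845 (plus strand), Dld at chr12:31331277-31351453 (minus strand) and Pcx at chr19:4510472-4621752 (plus strand). On chromosome 2 from 90 Mb, 712 genes showed a median shift of 0.28 (log2, ACAT1 KO against WT) after LPS and 86.2% were higher. On chromosome 12 the 584 genes had a median of -0.28 and 20.9% were higher. Within 2 Mb of Pdhx, 23 of 25 other genes tested were higher after LPS, with a median of 0.33, and within 2 Mb of Idh3b 58 of 70 were, with a median of 0.34. Near Dlst 48 of 60 genes were lower, with a median of -0.33, and near Dld 16 of 20 were, with a median of -0.34.

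The neighbourhood of Cs at the end of chromosome 10 behaved alike: 74 of 80 genes within 2 Mb and 141 of 162 within 20 Mb were lower after LPS, with medians of -0.34 and -0.35, while the median of the whole chromosome was -0.052. Without stimulation 73 of 81 genes within 2 Mb of Cs were lower, with a median of -0.29. Near Pcx 85 of 137 genes within 2 Mb were higher after LPS, with a median of 0.067. Without stimulation 99 of 140 were higher, with a median of 0.14. Leaving out the members on chromosome 12, on chromosome 2 from 90 Mb and on distal chromosome 10 takes away Pdhx, Idh3b, Cs and Dlst themselves. By that choice 0 called members remained without stimulation and 1, Pcx, after LPS. Distal chromosome 10 was added after the data were seen, so these counts are no test of position. The part of position in these differences was not tested.

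Acss2 was not called between genotypes in either state. It lies on the same stretch of chromosome 2 as Pdhx and Idh3b, and 71 of 78 genes within 2 Mb were higher after LPS, with a median of 0.31, while Acss2 itself was at -0.16 (edgeR, adjusted p = 0.493) on the log2 scale, from -0.27 to -0.015 with a library left out.

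**Figure D5:**
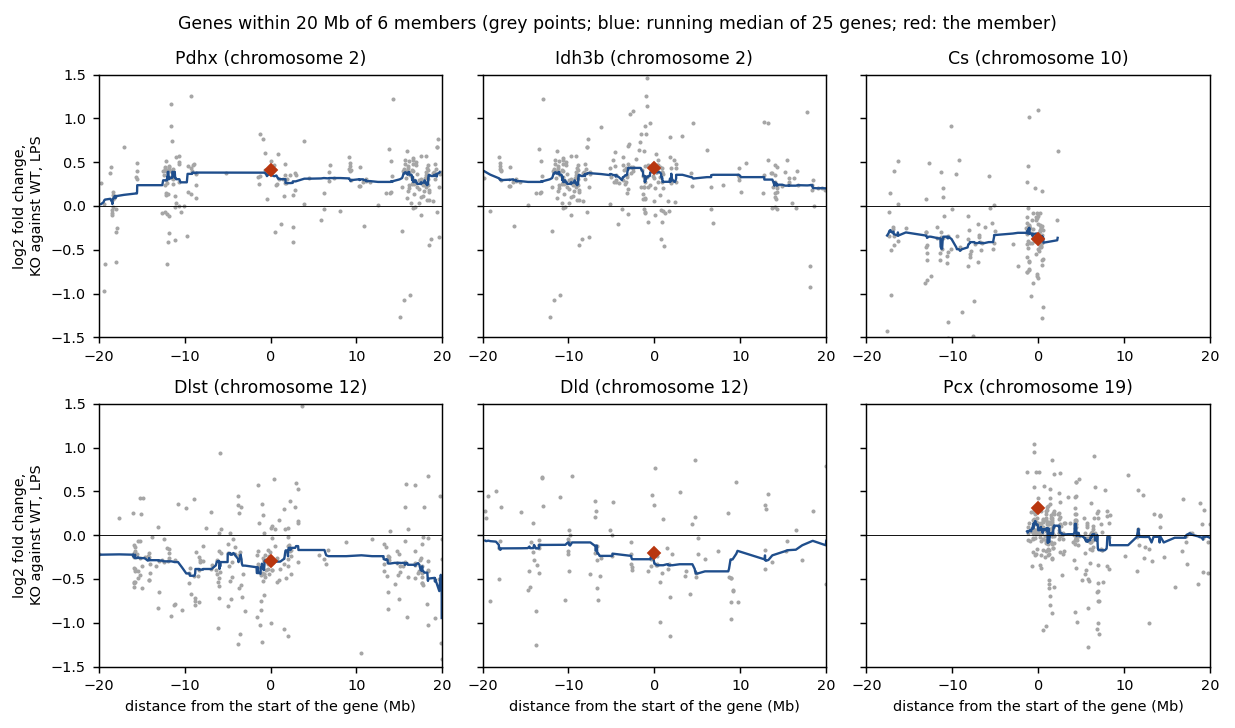
Log2 fold change of ACAT1 KO against WT cells after LPS for genes within 20 Mb of 6 members (grey points), by distance from the start of the member in Mb, with a running median of 25 genes (blue) and the member (red); 12 of 1374 points lie beyond the axis. Genes around Pdhx and Idh3b lie above 0 and genes around Cs, Dlst and Dld below 0 across the window, and genes around Pcx lie near 0.

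Whether the genotypes responded differently to LPS was tested as the interaction of genotype and LPS, and 0 of 35 members passed, where 0.0484% of all genes were positive and 0.139% negative. With p under 0.05 and no adjustment, 1 member was positive (Pdp2) and 1 negative (Mlycd), beside 3.28% and 5.64% of all genes, and DESeq2 and limma-voom also called 0. The response of Pdp2 was larger in ACAT1 KO cells by 0.34 (edgeR, adjusted p = 0.360) on the log2 scale, with a 95% interval of 0.078 to 0.60, and that of Mlycd was lower in them, with a difference of -0.28 (edgeR, adjusted p = 0.520) and an interval of -0.55 to -0.014. Intervals of the difference were -0.72 to 0.18 for Pdk1, -0.26 to 0.077 for Dlst, -0.32 to 0.12 for Pdhb, -0.37 to 0.93 for Me1, -0.16 to 0.30 for Cs and -0.31 to 0.12 for Pdhx. The interval of Me1 was the widest of these. The same 20 members were called with the same sign in both genotypes, 2 (Aco1, Acss2) passed in WT and not in ACAT1 KO cells and 1 (Me2) in ACAT1 KO and not in WT cells. Over all 16535 genes tested the numbers were 8464, 1018 and 1567, with 6 called in opposite directions. With the replicate block each of the 3 passed in both genotypes. For none of these 3 did the interaction pass, with estimates of -0.026 (edgeR, adjusted p = 0.980), 0.075 (edgeR, adjusted p = 0.980) and -0.043 (edgeR, adjusted p = 0.978).

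Of 46 other genes of the same pathways, 43 were tested without stimulation and 42 after LPS. Between genotypes 1 was called without stimulation, higher in ACAT1 KO cells (0.742% of all genes were called higher), and 4 after LPS, 2 higher and 2 lower (5.93% and 9.12% of all genes). Pank2, a pantothenate kinase that starts CoA synthesis and lies on distal chromosome 2, with 22.9% of its exonic length in exons of the other strand, was higher in both states, at 0.41 (edgeR, adjusted p = 0.0423) and 0.37 (edgeR, adjusted p = 0.0428). After LPS Srebf2, a regulator of sterol synthesis, was lower at -0.30 (edgeR, adjusted p = 0.0208), and Slc25a11, the 2-oxoglutarate carrier, was higher at 0.23 (edgeR, adjusted p = 0.0275). Between LPS and unstimulated cells 10 were called higher and 18 lower in WT, beside 29.3% and 28.0% of all genes, and 9 higher and 22 lower in ACAT1 KO cells, beside 29.5% and 31.2% of all genes. Pck2, mitochondrial PEP carboxykinase, fell, with log2 values of -1.22 (edgeR, adjusted p = 8.34e-08) and -1.45 (edgeR, adjusted p = 1.79e-08), and Gpt2, mitochondrial alanine transaminase, fell, with log2 values of -1.04 (edgeR, adjusted p = 4.22e-07) and -0.95 (edgeR, adjusted p = 7.85e-07). Lipt2, which begins lipoylation, a cofactor attachment that Dlat and Dlst need, fell, with log2 values of -1.5 (edgeR, adjusted p = 1.11e-06) and -1.5 (edgeR, adjusted p = 9.76e-07). Of the 3 lipoylation genes tested 1 was called lower and 1 higher in each genotype, the latter at 0.86 in WT and 0.97 in ACAT1 KO cells. Ppcdc, an enzyme of CoA synthesis, fell, with log2 values of -1.15 (edgeR, adjusted p = 1.29e-06) and -1.33 (edgeR, adjusted p = 3.26e-07).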

How the data were processed

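RNA-seq of 12 libraries was used. According to the study's methods and the submitters' processing notes, reads were trimmed (Trimmomatic 0.33), aligned (HISAT2, GRCm38) and quantified (StringTie). The 2 tables deposited by the authors, 1 per state, hold raw counts. Whether counting used the strand is not given in the sources used here. The tables' 12 columns of log2 values per library and the authors' fold changes and p-values were not used.

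Repeated entries (59 and 57) were dropped. No gene is listed whose 5th highest count among 6 libraries is below 4. Counts were fitted with edgeR 4.0.16 in R 4.3.3 (TMM, filterByExpr, quasi-likelihood, two-sided, Benjamini-Hochberg): genotypes within each state, over 6 libraries, and LPS and the interaction over all 12 and the 16699 genes of both tables. CPM use all 12 libraries. Intervals are 95%. At these totals the spread between libraries limits precision. Exon lengths and coordinates are from GENCODE M21 (GRCm38), promoters from RefSeq.

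In each comparison members past the threshold were named, at most 10 each way, or the 6 with the smallest p, plus Acly and Crat, and at most 5 other pathway genes; remaining members were added by role. Some other pathway genes that met this rule are not reported here. Members and lists were chosen with earlier results of these data known. Alternatives were DESeq2 1.42.0, limma-voom 3.58.1, other scalings and filters, offsets for gene length and GC content, a term for libraries with more antisense counts, the replicate block, other sets of libraries and each library left out. Same-numbered WT libraries deviated together across states (correlations over genes of 0.21 to 0.31), so their numbers were taken to pair them, from the data and not the labels. Scripts were tested on simulated data.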

Additional observations from a re-analysis of the deposited data

Results flagged for a closer look

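No member met a criterion for a closer look, and groups of 3 libraries are too small for a test of outlying libraries. Among the markers checked, Adgre1, which encodes the macrophage protein F4/80, responded differently to LPS in the genotypes: it rose by 1.09 (edgeR, adjusted p = 1.66e-06) in WT and 1.92 (edgeR, adjusted p = 1.61e-08) in ACAT1 KO cells on the log2 scale, a difference of 0.83 (edgeR, adjusted p = 0.0423).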

How the results depend on the processing

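In unstimulated cells 2 members were called between genotypes. This number was 6 with DESeq2, 5 with all 12 libraries in a single fit, 1 with the replicate block, 0 with the offset for gene length and GC content and 1 with that offset and the replicate block, and from 0 to 3 when each library was left out. Over all genes the 314 calls became 1641, 1353, 151, 88 and 156 in that order, 664 with a term for the libraries with more antisense counts, 475 with at least 10 counts in every library and from 7 (without WT replicate 2) to 522 (without WT replicate 3) with a library left out. After LPS 5 members were called, from 3 (without ACAT1 KO replicate 2 or 3) to 6 with a library left out, with 867 to 2245 of 2481 genes. Without the members on chromosome 12 or distal chromosome 2 the numbers were 1 and 2, and without those and the member on distal chromosome 10, chosen after the data were seen, 0 and 1.

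The members' median log2 fold change between genotypes was 0.078 in unstimulated cells with the offset and the replicate block. After LPS it was 0.016 with upper-quartile factors, 0.026 with the offset with or without the block, -0.035 with all 12 libraries, 0.011 without the members on chromosome 12 or distal chromosome 2 and from 0.0030 to 0.021 with a library left out. For the response to LPS in WT it was -0.22 with upper-quartile factors, -0.055 and -0.054 with the offset without and with the block, -0.080 with the antisense term, -0.040 with only 6 libraries and from -0.037 to -0.0040 with a library left out. In ACAT1 KO cells it was -0.18 with upper-quartile factors and from -0.093 to 0.011 with a library left out.

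With upper-quartile factors the LPS value became -0.047 for Aco1, -0.0099 for Ogdh, -0.0042 for Idh3a and -0.059 for Mdh2 in WT, and -0.00056 for Mdh2 and -0.10 for Acly in ACAT1 KO cells. Acly after LPS became 0.017 between genotypes with the offset and 0.018 with the offset and block, and its LPS value in WT lay between -0.041 and 0.017 with a library left out. In all, 1030 of 1114 values of named members under these alternatives kept their direction and side of the threshold. Interactions of members stayed at 0 calls under every alternative; over all genes the 31 calls became 288 with the replicate block, 301 with DESeq2 and 2 to 41 with a library left out.

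Same-numbered libraries deviated from their group means with correlations over genes of -0.34 to 0.65 between genotypes and 0.091 to 0.27 between states in ACAT1 KO cells, so there the numbers were not taken to pair libraries, although between states every library correlated best with its own number, a hint from the data and not the design. Between genotypes the replicate block groups same-numbered WT and ACAT1 KO libraries of a state, a grouping that the labels do not give. With it 1 member was called between genotypes without stimulation (Pdhx) and 5 after LPS. For LPS, where the block pairs states, 23 members each were called in WT, where Me2 was added, and in ACAT1 KO cells. There Aco1, at 0.14 (edgeR, adjusted p = 0.0442), and Acss2, at -0.39 (edgeR, adjusted p = 0.00212), were added. The causes of these changes were not tested.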

Other observations

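The genes named here were chosen after their values were seen, and most of all genes tested were called after LPS. Of 6 genes of CoA synthesis, 1 was called higher and 4 lower in each genotype: Pank1 fell, with log2 values of -1.33 (edgeR, adjusted p = 1.74e-05) in WT and -1.33 (edgeR, adjusted p = 1.59e-05) in ACAT1 KO cells and Coasy fell, with log2 values of -0.81 (edgeR, adjusted p = 1.33e-05) and -0.87 (edgeR, adjusted p = 5.80e-06), while Pank3, a further pantothenate kinase, rose by 0.47 (edgeR, adjusted p = 4.40e-05) and 0.48 (edgeR, adjusted p = 3.96e-05). Of 9 aconitase and succinate dehydrogenase genes, 1 was called higher and 3 lower in WT and 1 higher and 4 lower in ACAT1 KO cells; among the assembly factors of succinate dehydrogenase, Sdhaf3 fell, with log2 values of -0.55 (edgeR, adjusted p = 0.000175) and -0.95 (edgeR, adjusted p = 1.79e-06) and Sdhaf4 fell, with log2 values of -0.45 (edgeR, adjusted p = 0.00451) and -0.51 (edgeR, adjusted p = 0.00186). Of 5 tested genes of SREBP factors and their regulators, 3 were called higher and 2 lower in each genotype: Srebf1 fell, with log2 values of -0.56 (edgeR, adjusted p = 1.26e-05) and -0.64 (edgeR, adjusted p = 3.27e-06) and Insig1 fell, with log2 values of -0.98 (edgeR, adjusted p = 1.29e-05) and -0.68 (edgeR, adjusted p = 0.000210), whereas Srebf2 rose by 0.38 (edgeR, adjusted p = 0.00932) and 0.41 (edgeR, adjusted p = 0.00580). Acacb, the second acetyl-CoA carboxylase, fell, with log2 values of -0.93 (edgeR, adjusted p = 0.000476) and -0.73 (edgeR, adjusted p = 0.00230).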
